A study of Mus musculus with 28 samples.

Results

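The neurofilament subunit genes Nefh, Nefm, Nefl and Ina encode the heavy, medium and light chains and alpha-internexin, the intermediate filament proteins of mature central axons. They were taken as a named family, 4 genes of the 43629 in the deposited count table, and every one was measured in all 28 libraries with 1286 to 32611 counts each. The libraries came from the cortex of mice of genotype Glt25d2 BacTRAP, which carry a tag on ribosomes under control of Glt25d2 (now Colgalt2), a gene active in projection neurons of cortical layer 5. All 6 groups shared this genotype. Experimental autoimmune encephalomyelitis (EAE) was actively induced with MOG35-55, a peptide of a myelin protein, and mice were studied in the acute phase, 15 days after immunisation, and in the chronic phase, 30 days after immunisation, beside healthy mice of the same line. From each phase came IP libraries, made from RNA recovered on tagged ribosomes, and Input libraries, made from whole cortex RNA. There were 5 acute, 4 chronic and 5 healthy libraries of each fraction. The labels give no age or sex, and do not say whether each library came from a separate mouse, so each p-value reflects how libraries varied, possibly for technical reasons alone.

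Neurofilaments are built along the axon from the light chain, which forms the core together with the medium and heavy chains, and from alpha-internexin, which joins them in central neurons. The long tails of the medium and heavy chains project from the filament and are phosphorylated on lysine-serine-proline motifs, and the amount of neurofilament is a known determinant of axon calibre. The light chain released from injured axons is measured in cerebrospinal fluid and blood as a marker of axonal damage in multiple sclerosis, for which EAE is a model.

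Between single GENCODE transcripts of the 4 genes (GRCm38), taking for Nefm the one without its distal exon, the longest exact run of bases shared on the same strand was 13 (Nefl with Ina) to 23 bases (Nefh with Nefm). The tails set the subunits apart, and a stretch of Nefh and of Nefm is shown for that reason. Counted in frame, codons for lysine, serine and proline in a row occurred 51 times among the 1090 codons of Nefh and 4 times among the 848 codons of Nefm. Nefl (543 codons) and Ina (501 codons) had 0. The densest 90 bases of each, both on the minus strand, lie at chr11:4940974-4941063 in Nefh and at chr14:68121063-68121152 in Nefm, and capitals mark those codons.
Nefh: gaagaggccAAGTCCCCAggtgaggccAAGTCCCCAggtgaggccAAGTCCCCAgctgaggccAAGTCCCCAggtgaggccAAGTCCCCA
Nefm: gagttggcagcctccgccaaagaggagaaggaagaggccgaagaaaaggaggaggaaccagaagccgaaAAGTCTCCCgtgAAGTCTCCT
In this stretch Nefh holds 5 such motifs and Nefm 2.

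In the gene models used for counting (GRCm38), Nefh (ENSMUSG00000020396) lies on chromosome 11 from 4938754 to 4948064 and Ina (ENSMUSG00000034336) on chromosome 19 from 47014698 to 47025327. Nefm (ENSMUSG00000022054) and Nefl (ENSMUSG00000022055) are neighbours on opposite strands of chromosome 14, Nefm from 68082590 to 68124846 and Nefl from 68083863 to 68089095. A distal exon of Nefm (68082590 to 68084970, 2381 bases), used by 1 of its 2 annotated transcripts, runs over 1108 bases of the opposite strand that are also exon of Nefl, including the start of the Nefl coding sequence (chr14:68083963-68084022, plus strand, start codon in capitals).
Nefl: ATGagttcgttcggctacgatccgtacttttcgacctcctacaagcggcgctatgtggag
Ina likewise shares 456 exon bases with Nt5c2 on the other strand, and Nefh shares none. The counting used no strand, so reads from these bases cannot be told apart. The shared part was 32.8% of the exon length of Nefl, 19.2% of that of Nefm and 14.1% of that of Ina, and its effect on the changes was not tested.

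IP libraries were shallower and more uneven than Input libraries: 6198088 to 21229550 counts over 9566 to 17995 genes in IP, and 17848273 to 27915940 counts over 20714 to 21734 genes in Input. The coefficient of biological variation that edgeR estimated was 1.06 for IP, against 0.101 for Input. The 4 IP libraries with the fewest genes were acute replicates 1 and 3, chronic replicate 3 and healthy replicate 5, and results are also given without them. In healthy mice 6 of 10 layer 5 markers were higher in IP than in Input and 0 lower (adjusted p under 0.05, edgeR). Of all genes 7.20% were higher. Of 10 pan-neuronal genes 7 were higher and 0 lower, with a median log2 ratio of 0.57, against 0.79 for layer 5. Enrichment of layer 5 over other neurons was not tested. Fezf2 averaged 210 ± 46.7 CPM (counts scaled to library size) in IP and 57.4 ± 6.85 CPM in Input (SD). Colgalt2 (68.4 ± 20.4 against 53.1 ± 2.41 CPM) and Bcl11b (94.8 ± 28.3 against 112 ± 16.8 CPM) overlapped.

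The 4 subunits together took 0.234% to 0.453% of all counts in IP and 0.110% to 0.125% in Input. Levels are given as CPM (counts scaled to library size) and, to compare genes, as RPKM (CPM per kilobase of exon). In healthy Input, Nefl was highest at 119 ± 3.46 RPKM, then Ina at 97.3 ± 4.63, Nefm at 56.5 ± 6.22 and Nefh at 17.2 ± 1.22 (SD, n = 5), and this order held in all 5 libraries. The same order held in 4 of 4 chronic Input libraries and in 3 of 5 acute ones, where Nefl (113 ± 4.93 RPKM) and Ina (109.8 ± 3.21) did not differ beyond their spread. This near tie depended on the length used. With only unshared exon bases as the length, acute Input held 168 ± 7.33 RPKM of Nefl and 128 ± 3.73 of Ina. The order then held in 5 of 5 acute libraries.

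In IP all 4 levels were higher, and the upper 3 subunits lay closest together in the acute phase. Healthy IP held 271 ± 36.6 RPKM of Nefl, 200 ± 30.5 of Ina, 166 ± 22.0 of Nefm and 31.5 ± 5.21 of Nefh (SD, n = 5), with Nefl first in 4 of 5 libraries. Acute IP held 297.5 ± 40.1 RPKM of Nefl, 291 ± 53.6 of Ina and 286 ± 33.5 of Nefm, which overlapped, and 67.6 ± 10.96 of Nefh (SD, n = 5). Chronic IP held 457 ± 65.9 RPKM of Nefl, 297 ± 42.4 of Nefm and 264 ± 55.3 of Ina, and Nefh again stood below them at 57.8 ± 9.74 (SD, n = 4). The order of the upper 3 depended on the length used. With only unshared exon bases for every gene, acute IP held 443 ± 59.6 RPKM of Nefl, 354 ± 41.4 of Nefm and 339 ± 62.3 of Ina. Nefl was then the highest subunit in every acute IP library. Another choice took the Nefm transcript of 3334 bases without the distal exon, with only unshared bases for the others. Acute IP then held 496 ± 58.1 RPKM of Nefm against 443 ± 59.6 of Nefl, and Nefm was the highest subunit in 4 of 5 libraries. Nefh was the lowest under every length and in every library.

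**Figure D1:**
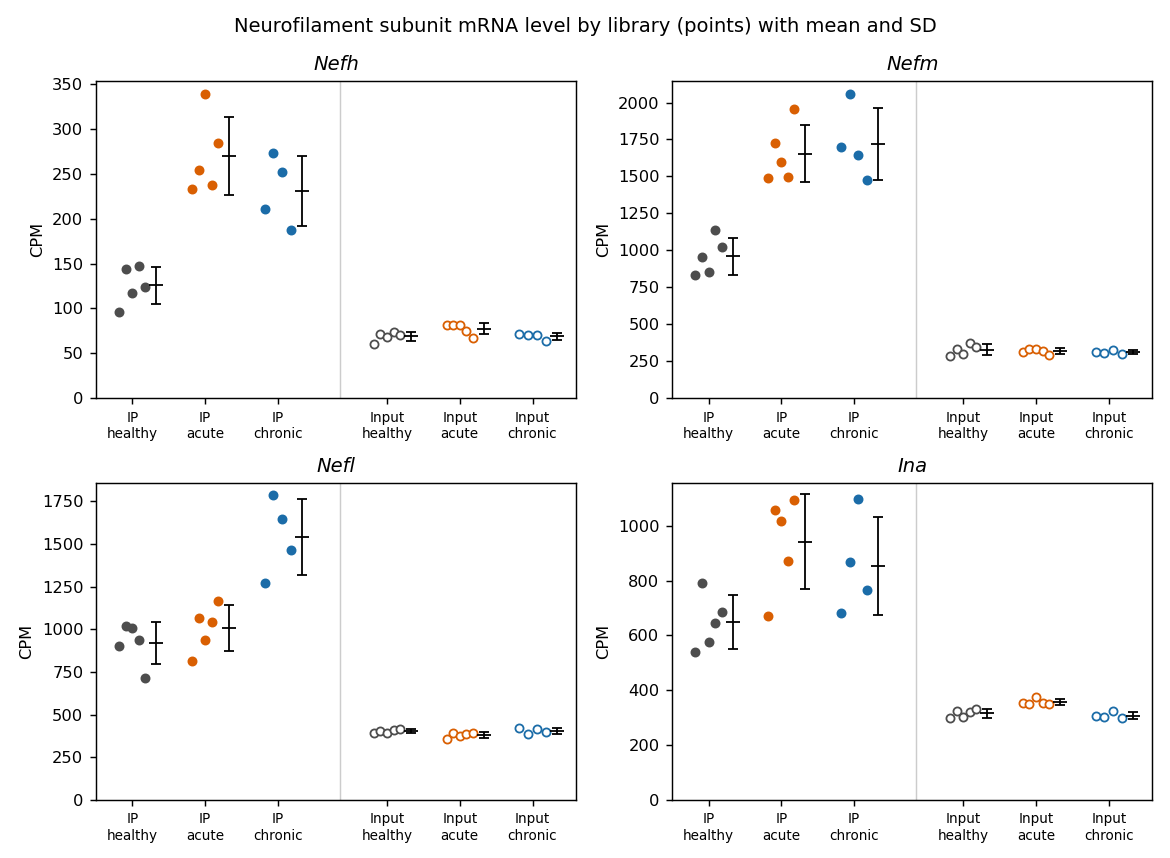
Level of each subunit in CPM (linear axis from 0) in the 14 IP libraries (filled) and 14 Input libraries (open), by phase; points are libraries, and bars give the mean and SD of a group. Nefh and Nefm in acute and chronic IP lie above healthy IP, Nefl is higher in chronic IP than in acute or healthy IP, and Input groups lie close together.

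All 4 subunits were higher in IP than in Input in each phase, and no IP library overlapped an Input library of its phase for any of them. How common such separation of groups was over all genes was not counted, here or in later comparisons. In healthy mice Nefm averaged 959 ± 127 CPM in IP and 326 ± 36.0 CPM in Input (SD, n = 5 each), a log2 ratio of 1.56 ± 0.10 (SE). The ratio was 1.19 ± 0.10 for Nefl, 1.04 ± 0.12 for Ina and 0.87 ± 0.13 for Nefh. Over all genes the median was -0.23, and 21.6% of 16580 genes were called, 7.20% higher (adjusted p under 0.05, edgeR quasi-likelihood test with Benjamini-Hochberg adjustment).

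Nefm stood out further in EAE, a difference that the interaction test further on addresses. Its log2 ratio of IP to Input was 2.38 ± 0.11 in acute and 2.47 ± 0.12 in chronic mice, exceeded by only 0.338% and 0.320% of genes, against 1.56% in healthy mice. Nefl reached 1.40 ± 0.10 in acute and 1.93 ± 0.12 in chronic mice, and Ina 1.41 ± 0.12 and 1.48 ± 0.14. Nefh reached 1.80 ± 0.13 in acute and 1.75 ± 0.15 in chronic mice. In acute mice 18.7% of genes were called, 8.56% higher in IP, and in chronic mice 28.7%, 8.74% higher. All 4 calls held under every alternative run, in all 3 phases.

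The acute IP comparison asked which subunits changed on the tagged ribosomes 15 days after immunisation. Nefh and Nefm rose in acute relative to healthy IP, by 2.14-fold and 1.72-fold, and Nefl and Ina did not pass the test. Nefh, the heavy chain, had 233, 255, 339.7, 238 and 284 CPM in the 5 acute IP libraries, against 96.4, 144, 117, 147 and 124 CPM in the 5 healthy ones. The lowest acute library stood well above the highest healthy one. The log2 change was 1.10 ± 0.18 (SE, adjusted p = 0.0169, edgeR), and the 95% interval of the fold ran from 1.68 to 2.74.

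Nefm, the medium chain, had 1491, 1727, 1597, 1497 and 1954 CPM in acute IP, against 831.5, 952, 850, 1138 and 1024 CPM in healthy IP. Again the groups did not overlap, and the log2 change was 0.78 ± 0.13 (adjusted p = 0.0169, edgeR). These were 2 of only 9 genes called among 13914 tested (0.0647%), 8 of them higher (0.0575%). The size of the changes was not extreme: 6.73% of genes had a higher log2 change than Nefh and 10.4% than Nefm.

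Nefl, the light chain, had 812.5, 1067, 938, 1043 and 1168 CPM in acute IP and 903, 1019, 1010, 939 and 714 CPM in healthy IP. The groups overlapped through most of their range, and the log2 change was 0.12 ± 0.14, with a 95% interval of -0.14 to 0.39 (adjusted p = 0.9999, edgeR). Ina, which encodes alpha-internexin, had 672.5, 1057, 1018, 870.5 and 1096 CPM in acute IP, against 539, 792, 577, 646 and 685 CPM in healthy IP. Only acute replicate 1 lay within the healthy range, and the log2 change of 0.53 ± 0.16 did not pass (adjusted p = 0.339, edgeR). It passed with the DESeq2 Wald test (0.52, adjusted p = 0.0425), with voom and library weights (0.59, 0.00985) and with all 28 libraries in 1 edgeR fit (0.54, 0.00644). These called 125, 372 and 1611 genes in this comparison, against 9 in the main fit. The joint fit pools the spread of IP with the far smaller one of Input, so its p-values can be too small for IP.

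These calls had little margin. With acute replicate 5, healthy replicate 1 or healthy replicate 3 left out in turn, neither gene passed (adjusted p of 0.0803, 0.0812 and 0.121 for Nefh), and without acute replicate 2 Nefm did not pass (0.0511, edgeR). Without the 4 libraries with the fewest genes the log2 changes were 1.02 for Nefh and 0.86 for Nefm, with adjusted p of 0.0796 and 0.0702 (edgeR). Other RNA moved with the same groups: the summed level of the 12 mitochondrially encoded genes was 113.5 to 229.5 CPM in acute and 290 to 678 CPM in healthy IP (8 tested, 1 lower; 1 of the 12 at 0 in every acute library), and that of the 8 astrocyte markers 2214 to 4184 against 1579 to 2293 CPM (1 of 8 higher, Gfap), with no astrocyte marker at 0 in a whole group. Their part in the result was not tested. The 8 leukocyte markers summed to 0 to 8.96 CPM in acute and 0 to 4.88 CPM in healthy IP. In such bulk RNA, fewer cells of a type and less RNA per cell cannot be told apart.

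In the chronic phase, 30 days after immunisation, Nefl and Nefm were called higher in chronic than in healthy IP. Nefl had 1274, 1788, 1645 and 1467 CPM in the 4 chronic IP libraries, against 903, 1019, 1010, 939 and 714 CPM in the healthy ones. Every chronic library exceeded every healthy one. The log2 change was 0.75 ± 0.14 (1.68-fold, adjusted p = 0.0267, edgeR).

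Nefm had 1700, 2057, 1645 and 1474 CPM in chronic IP, against 831.5, 952, 850, 1138 and 1024 CPM in healthy IP. In chronic replicate 3 the deposited counts of Nefm and Nefl were the same number, 18096. The groups did not overlap, and the log2 change was 0.84 ± 0.14 (1.79-fold, adjusted p = 0.00695, edgeR). Nefh had 210.4, 272.9, 252.0 and 187.3 CPM in chronic IP, likewise all above the 96.4 to 147 CPM of healthy IP. Its log2 change of 0.87 ± 0.19 did not pass (adjusted p = 0.0546, edgeR) and passed with DESeq2's size factors as the scaling (0.0455), with the DESeq2 Wald test (0.00172) and with all 28 libraries in 1 fit (0.000222).

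Ina had 683, 869.7, 1098 and 767.5 CPM in chronic IP and 539, 792, 577, 646 and 685 CPM in healthy IP. These overlapped, with a log2 change of 0.39 ± 0.17 (adjusted p = 0.380, edgeR, and 0.0321 with all 28 libraries in 1 fit). In this comparison 2 of the 4 subunits were called, and 26 of 13914 genes (0.187%) in all, 25 of them higher (0.180%). The joint fit of all 28 libraries, which pools the spread of both fractions, called 2550 genes here. The acute and chronic comparisons share the 5 healthy libraries.

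The Nefm call held with each replicate left out in turn. That of Nefl was lost without chronic replicate 2, 3 or 4 or healthy replicate 1, 3, 4 or 5, with an adjusted p of 0.0505 to 0.131, and without the 4 libraries with the fewest genes its log2 change was 0.64 (adjusted p = 0.0602, edgeR). Beside these changes, Gad1, an enzyme of inhibitory neurons, was higher in chronic IP (0.97 ± 0.19, adjusted p = 0.0271, edgeR; 1 of 8 inhibitory neuron markers), with a summed level of 1051 to 1498 CPM for that list in chronic and 658 to 896 CPM in healthy IP. The median log2 change of that list was 0.37, but not every marker went upward. Pvalb averaged 60.2 ± 28.8 CPM in chronic and 89.4 ± 20.7 CPM in healthy IP (SD), with overlap. The astrocyte sum was 2752 to 5305 CPM in chronic and 1579 to 2293 CPM in healthy IP, with 1 of 8 higher (Aldoc). The mitochondrial sum was 148 to 292 CPM against 290 to 678 CPM. The part of these in the neurofilament changes was not tested.

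Between the EAE phases Nefl was the subunit whose groups did not overlap, though the share of all genes without overlap was not counted. It had 1274 to 1788 CPM in chronic IP, all above the 812.5 to 1168 CPM of acute IP, a log2 change of 0.62 ± 0.14 that did not pass (adjusted p = 0.166, edgeR). No gene was called in this comparison (0.00% of 13914), with 1145 at an unadjusted p under 0.05. The DESeq2 Wald test called 157 genes, Nefl among them (0.64, adjusted p = 9.64e-05), as did voom with library weights (39 genes, Nefl adjusted p = 0.0457). The other subunits overlapped between the phases, with log2 changes of -0.23 ± 0.19 for Nefh, 0.06 ± 0.14 for Nefm and -0.14 ± 0.17 for Ina.

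**Figure D2:**
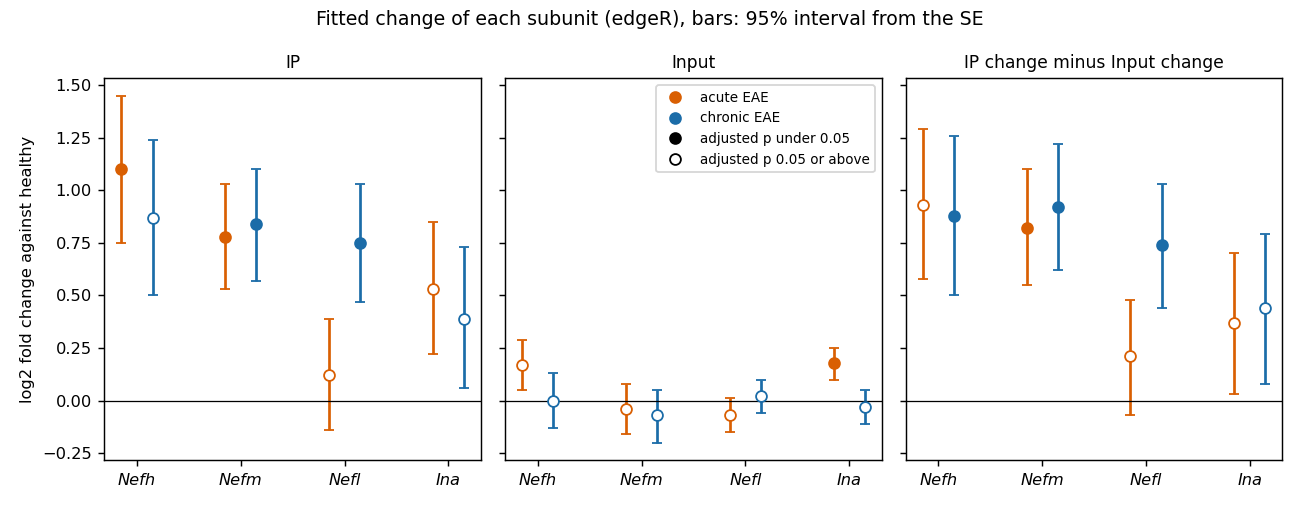
Log2 change of each subunit in acute and chronic EAE against healthy mice in IP, in Input, and as the difference between the fractions; points are edgeR estimates, bars the 95% interval from the SE, and filled points passed an adjusted p under 0.05. The IP changes of Nefh and Nefm are 0.78 to 1.10 in both phases, that of Nefl is 0.12 in acute and 0.75 in chronic EAE, and every Input change is within 0.18 of 0.

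Whole cortex RNA showed another order. Ina was the only subunit called in acute Input, with 353, 350.4, 374, 352 and 349.6 CPM, against 298, 324, 301, 322 and 332 CPM in healthy Input. The groups did not overlap, although the fold was small at 1.13 (log2 change 0.18 ± 0.04, adjusted p = 0.00317, edgeR). Here 3230 of 16381 genes (19.7%) were called, 11.1% of all tested being higher, so a single call among 4 subunits is near the background.

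Nefh had 81.8, 81.45, 81.5, 74.9 and 67.1 CPM in acute Input and 60.8, 72.0, 68.2, 73.2 and 70.2 CPM in healthy Input. Acute replicate 5 lay inside the healthy range, and the log2 change of 0.17 ± 0.06 did not pass (adjusted p = 0.0584, edgeR). Without that library it was 0.22 and passed (adjusted p = 0.00936, edgeR), as it did with all libraries under DESeq2 (0.0493) and voom (0.01745). Nefm had 291 to 334 CPM in acute Input and 286 to 375 CPM in healthy Input, and Nefl 354 to 394 against 389 to 417 CPM. Both overlapped, with log2 changes of -0.04 ± 0.06 and -0.07 ± 0.04.

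Other cell types also moved in whole cortex. In acute Input 3 of 8 astrocyte markers, 5 of 8 microglial markers and 5 of the 5 leukocyte markers tested were higher and 1 microglial marker, P2ry12, was lower (-0.54 ± 0.16, adjusted p = 0.0192, edgeR), with summed levels of 3018 to 3839, 104 to 161 and 13.5 to 21.0 CPM, against 2263 to 2630, 47.1 to 72.6 and 2.45 to 4.26 CPM in healthy Input. Their part in the change of Ina was not tested.

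In chronic Input no subunit was called against healthy Input, where edgeR called 2.74% of genes, and none of the 4 had an unadjusted p under 0.05 either (0.273 for Nefm, the lowest). DESeq2 and voom also called 0. The log2 changes lay between -0.07 and 0.02, with 95% intervals of -0.13 to 0.13 for Nefh and -0.20 to 0.05 for Nefm. Ina had 304, 302, 325 and 297.5 CPM in chronic Input, all below the 349.6 to 374 CPM of acute Input. It fell by 0.21 on the log2 scale in chronic relative to acute mice (SE 0.04, adjusted p = 0.00445, edgeR), in a comparison that called 7.69% of genes, 4.74% lower.

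Whether the IP change differed from the Input change was tested as an interaction in all 28 libraries. This fit too gives IP and the less variable Input a shared estimate of spread. In acute EAE the difference was 0.82 ± 0.14 for Nefm (adjusted p = 0.0492, edgeR), and Nefm was the only gene called of 16580 (0.00603%). Nefh followed at 0.93 ± 0.18 (adjusted p = 0.0706), and passed with the DESeq2 Wald test (0.00013) and voom (0.0191), and the differences of Ina, 0.37 ± 0.17, and Nefl, 0.21 ± 0.14, did not pass. With each replicate number of a phase removed in turn, the Nefm call was lost 8 of 10 times (acute 2 to 5, healthy 1, 2, 3 and 5; adjusted p 0.0505 to 0.140), while its size stayed at 0.73 to 0.86.

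In chronic EAE 3 of the 4 subunits changed further upward in IP than in Input. The difference was 0.92 ± 0.15 for Nefm (adjusted p = 0.00261), 0.88 ± 0.19 for Nefh (0.0266) and 0.74 ± 0.15 for Nefl (0.0170, edgeR), and 0.44 ± 0.18 for Ina, which did not pass (0.174). Of all genes 1.03% were called, 0.633% higher. Nefl and Nefh were lost without chronic replicate 2 (adjusted p = 0.0700 and 0.0792) or 3 (0.0586 and 0.0802), and Nefh also without healthy replicate 1, 3 or 5 (0.0543 to 0.0584), so that 1 to 3 subunits were called in these fits. The call of Nefh was also lost without the filter on low counts (0.88, adjusted p = 0.0552, edgeR) and with voom (0.78, adjusted p = 0.130). With IP and Input blocked by number, the calls of Nefh and Nefl were lost (adjusted p = 0.0587 and 0.0563, edgeR).

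The balance between subunits was measured within each library, where the scaling of the library drops out. For each of Nefh, Nefm and Ina the log2 ratio of RPKM to Nefl was compared in 9 ways by a two-sided exact permutation test, 27 tests in all, of which 10 had an adjusted p under 0.05. The smallest possible p was 0.00794 for 5 libraries against 5 or 4, and 0.0286 for 4 against 4. After adjustment the latter was 0.0612 here (exact permutation) and did not pass.

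Nefh ran at 0.243, 0.202, 0.307, 0.193 and 0.206 of the Nefl level in acute IP, against 0.0903, 0.120, 0.0981, 0.1325 and 0.1465 in healthy IP. The groups were apart, with a mean log2 difference of 0.97 (exact permutation p = 0.00794, adjusted 0.0268). In chronic IP the ratio was 0.1397, 0.129, 0.1296 and 0.108, within the healthy range and below every acute library, so that chronic minus acute was -0.85 (adjusted p = 0.0268, exact permutation).

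Nefm was also highest relative to Nefl in acute IP. It stood at 1.07, 0.947, 0.995, 0.839 and 0.978 of Nefl in acute IP, against 0.538, 0.546, 0.492, 0.709 and 0.8387 in healthy IP, a mean log2 difference of 0.65. Acute replicate 4 cleared healthy replicate 5 by less than 0.001. In chronic IP the ratio was 0.7799, 0.672, 0.585 and 0.587, and chronic minus acute was -0.56 (both adjusted p = 0.0268, exact permutation).

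Ina to Nefl differed between the EAE phases in both fractions. In IP it was 0.559, 0.507, 0.696 and 0.546 in chronic libraries, all below the 0.8635 to 1.13 of acute ones (log2 difference -0.76). In Input it was 0.752 to 0.822 in chronic libraries and 0.925 to 1.04 in acute ones (-0.30), and the acute values were also above the 0.796 to 0.844 of healthy Input (0.25; all adjusted p = 0.0268, exact permutation). None of the 3 ratios differed between chronic and healthy mice in either fraction at this threshold. Between fractions, Nefm to Nefl was higher in IP than in Input in acute mice (0.98, adjusted p = 0.0268, exact permutation). The same ratio in healthy mice (0.37) and Nefh to Nefl in acute mice (0.40) differed with overlapping groups (adjusted p = 0.0429, exact permutation). In chronic mice Nefm to Nefl (0.54) and Ina to Nefl (-0.46) did not overlap between IP and Input but did not pass (adjusted p = 0.0612, exact permutation). Nefh to Nefl in chronic mice overlapped (-0.19). With acute IP replicate 1, 2, 3 or 5 left out, 0 of the 27 ratios passed, and 5 passed without acute IP replicate 4. Leaving out the 4 libraries with the fewest genes also left 0. With fewer libraries the smallest p of the exact test rises in some comparisons, so these counts do not measure whether the differences shrank. Ina to Nefl in acute against healthy Input kept its libraries and its 0.25, yet had an adjusted p of 0.0857 (exact permutation). Nefh to Nefl in acute against healthy IP differed by 0.86 to 1.06 leaving out 1 library, and by 0.88 without the 4.

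**Figure D3:**
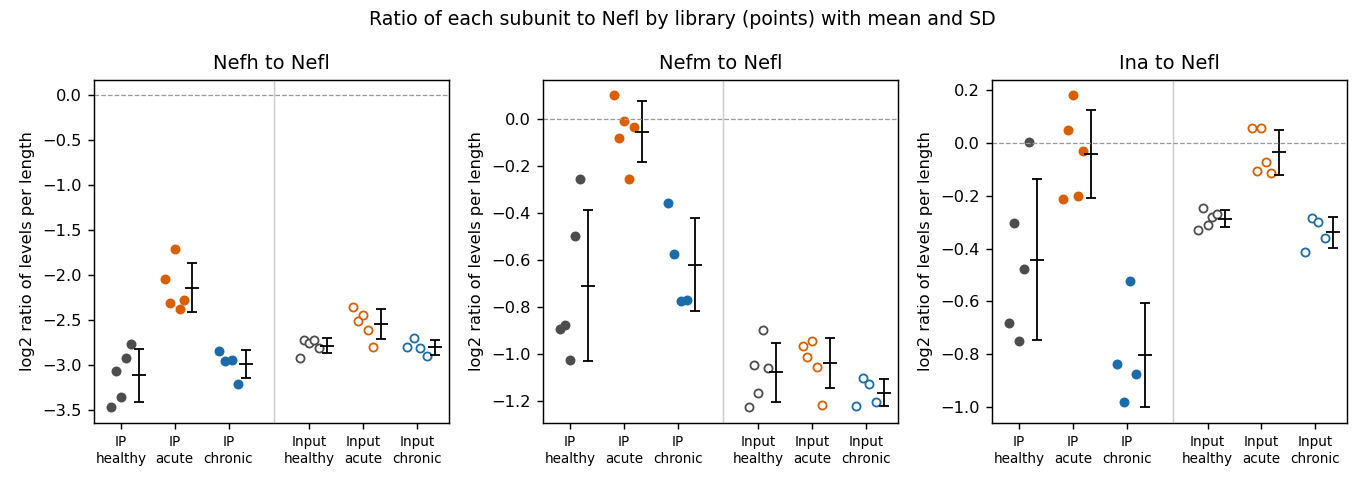
Log2 ratio of the length-scaled level of Nefh, Nefm and Ina to that of Nefl in each library, with the mean and SD of each group; the dashed line marks equal levels. In IP the group means of the 3 ratios are highest in the acute phase, and the chronic libraries lie below every acute one.

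To set the subunits beside other neuronal RNA of the same library, each was divided by the summed CPM of 10 pan-neuronal genes (Snap25, Syt1, Rbfox3, Eno2, Stmn2, Thy1, Uchl1, Syn1, Vsnl1 and Celf4). None of these 10 was called in acute or chronic IP against healthy IP. Over all genes only 0.0647% were called in acute and 0.187% in chronic IP, so 0 calls is near that background. The list's median log2 change was 0.06 in acute and -0.23 in chronic IP, beside -0.04 and -0.03 over all genes. Of 36 such comparisons 15 had an adjusted p under 0.05. Relative to these genes Nefh was higher in acute IP than in healthy IP by 0.98 (log2) and in chronic IP by 0.88. Nefm was higher by 0.66 and 0.85, with no overlap between groups in any of these 4 (adjusted p = 0.0204 each, exact permutation).

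Nefl stood at 0.0376, 0.0448, 0.0524, 0.0556 and 0.0541 of the pan-neuronal sum in acute IP and at 0.0473, 0.0564, 0.0542, 0.0468 and 0.0380 in healthy IP, a log2 difference of 0.01. In chronic IP it was 0.0582, 0.0888, 0.0914 and 0.0927. Each of these exceeded every acute and every healthy value, by a mean log2 difference of 0.75 and 0.76 (adjusted p = 0.0204, exact permutation). Ina overlapped between all IP groups, and in Input it was higher in acute mice than in healthy mice by 0.25 and lower in chronic than in acute mice (-0.27; adjusted p = 0.0204, exact permutation). Over the summed layer 5 markers, a choice made after the data were seen, 0 of 36 passed. In chronic against healthy IP the log2 differences were then 0.97 for Nefh, 0.935 for Nefm and 0.845 for Nefl (adjusted p = 0.0714, 0.0714 and 0.0816, exact permutation), and in acute against healthy IP 0.80 for Nefh and 0.48 for Nefm (0.0816 and 0.101). For Nefl in chronic against acute IP the difference was 1.02 (adjusted p = 0.0714, exact permutation). Without the 4 libraries with the fewest genes 0 of 36 passed too, and the smallest adjusted p was 0.0541 (exact permutation), that of Nefh, Nefm and Nefl in chronic against healthy IP among others, with log2 differences of 0.82, 0.87 and 0.62. With fewer libraries the exact test has fewer arrangements, so the 0 without the 4 libraries does not measure whether the differences shrank. The layer 5 sum was 1416 to 2173 CPM in acute, 1030 to 1684 in chronic and 1235 to 1666 in healthy IP.

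**Figure D4:**
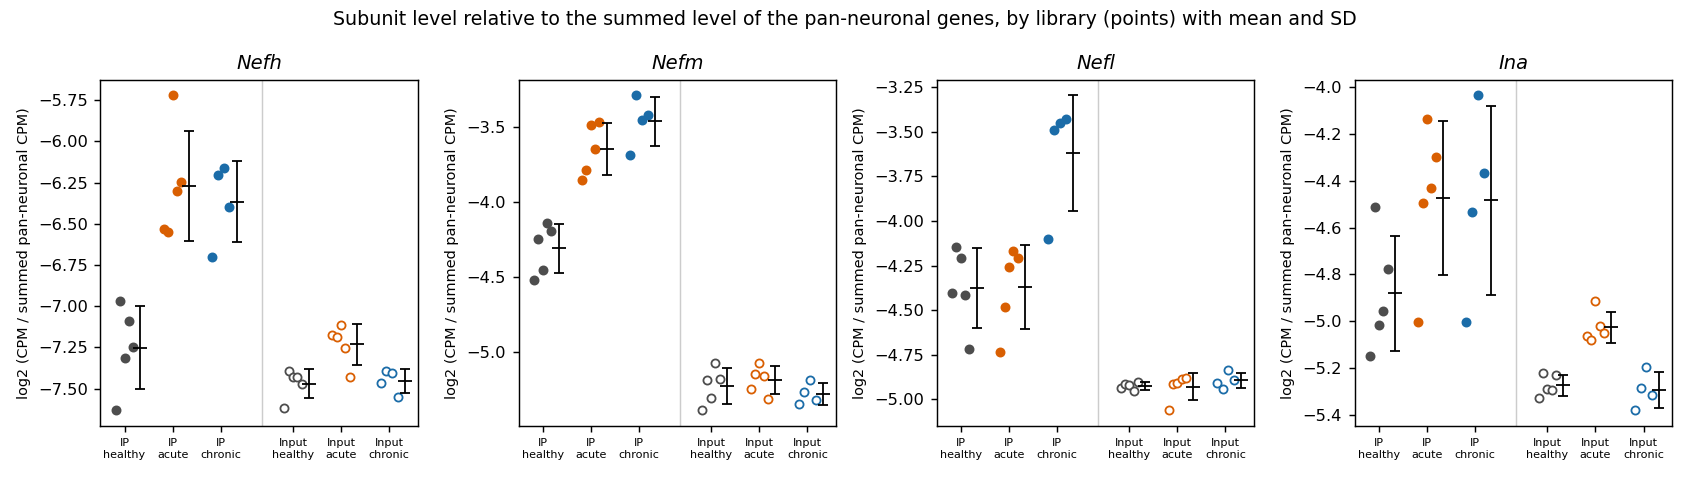
Log2 of the CPM of each subunit over the summed CPM of 10 pan-neuronal genes in each library, with the mean and SD of each group. Nefh and Nefm are higher in acute and chronic IP than in healthy IP without overlap, and the 4 chronic IP libraries of Nefl lie above all other IP libraries.

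Genes that work with neurofilaments were listed by role. Of the 9 other intermediate filament genes, 8 were tested in IP and only Gfap, the astrocyte filament protein, was called in acute IP (2.81 ± 0.44, adjusted p = 0.0282, edgeR), with a list median of 0.46 beside -0.04 over all genes. In Input, Gfap rose by 2.20 ± 0.15 in acute and 1.27 ± 0.15 in chronic mice, and Vim, vimentin, by 1.78 ± 0.18 and 0.99 ± 0.19. These were 2 of 9 in each phase, beside 11.1% of all genes called higher in acute Input and 2.74% called in either direction in chronic Input.

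The 14 genes of transport, crosslinking and kinases included none called in IP in either phase, with medians of -0.01 in acute and 0.18 in chronic EAE. Over all genes only 0.0647% were called in acute and 0.187% in chronic IP, so 0 calls in a short list is near that background. In acute Input, where 19.7% of all genes were called, 3 of 14 fell and 0 rose. Those that fell included Gsk3b (-0.34 ± 0.05), a kinase that acts on neurofilament tails, and Kif5c (-0.15 ± 0.04), a kinesin motor. In the turnover list, 0 of 9 tested were called in IP. In acute Input 3 of 10 were called higher and 1 lower, where 11.1% of all genes were called higher. Those higher were Hspb8 (0.73 ± 0.10), Hspb1 (0.88 ± 0.15) and Stub1 (0.17 ± 0.04), which encode small heat shock proteins and a chaperone-linked ubiquitin ligase.

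Of 18 genes of the axonal microtubule and membrane skeleton, 0 were called in acute or chronic IP against healthy IP, again near the share over all genes. The smallest adjusted p in acute IP belonged to Map1a (0.75 ± 0.17, adjusted p = 0.148) and in chronic IP to Tubb4a (0.61 ± 0.14, 0.0719, edgeR). The list's median was 0.31 in chronic IP, beside -0.03 over all genes. In the chronic interaction, where 1.03% of all genes were called, 2 of 18 passed. They were the tubulins Tubb4a (0.64 ± 0.16, adjusted p = 0.0460) and Tuba4a (0.58 ± 0.15, 0.0472, edgeR). In acute Input, where 19.7% of all genes were called, 6 of 18 fell and 1 rose. Those that fell included Map2 (-0.35 ± 0.04), Dpysl2 (-0.30 ± 0.04) and Map1b (-0.27 ± 0.07). Sptbn4, the spectrin of the axon initial segment and nodes, rose by 0.28 ± 0.06.

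Across the 14 IP libraries, which share their phases and the uneven depth of the fraction, Nefh and Nefm varied together most closely of the subunits (Pearson r = 0.926, Spearman rho = 0.908, log2 CPM). With the group means taken out r was 0.683. Nefm ranked 2 among 5143 other genes for likeness to Nefh, after Mast3 (r = 0.948). For Nefm the most alike were Aldh2 (0.966) and Mroh1 (0.957), for Nefl Psmd1 (0.961) and Hsph1 (0.958), and for Ina Wnk2 (0.906) and Map1b (0.904).

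In IP the r of Nefl was 0.435 with Nefh, 0.575 with Nefm and 0.427 with Ina, and 0.348, 0.227 and 0.521 with the group means taken out. In Input it was -0.403, 0.273 and -0.369, and -0.034, 0.375 and 0.413 with the group means taken out. In Input the r of Ina with Nefh was 0.759, or 0.531 with the group means taken out, and that of Nefh with Nefm 0.533, or 0.751. Ina was most like Apbb1 in Input (0.921). These correlations are descriptions of 14 libraries each, with no test.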

How the data were processed

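Poly A RNA from IP and Input fractions was sequenced on a NovaSeq, per the labels. The deposited values are whole-number counts of read pairs per gene, made by the authors with featureCounts 1.5.1 over exons of the Ensembl 79 GRCm38 annotation without strand, per the file headers. STAR 2.4 is named in the submitters' processing notes. The header names 36 alignment files. The 28 count columns held were all mapped to samples, and 97.3% of genes had a symbol.

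The members and lists were chosen with earlier results of these data known. Genes were kept by edgeR's filterByExpr (count 10, total 15), scaled by TMM and tested with edgeR 4.0.16's robust quasi-likelihood test in R 4.3.3, with Benjamini-Hochberg adjustment over all genes tested and a threshold of 0.05. IP and Input were fitted separately for comparisons of phases, and together for comparisons of fractions and interactions. SEs are the absolute log2 change over the square root of F, and 95% intervals follow from them. Ratios within libraries used two-sided exact permutation tests (Python 3.11.15). Scripts were tested on simulated data. Alternatives were DESeq2 1.42.0, limma 3.58.1 (voom), another scaling, no filter, a replicate block, and leaving out libraries. CPM and RPKM were computed here from the deposited counts.

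Members were always named. From each list up to 4 genes with the smallest adjusted p per comparison were eligible (2 where none was called), and for likeness the 5 highest Pearson correlations over the 14 libraries of a fraction among genes with a mean log2 CPM of at least 5. Some items of the lists and sequences are not reported here.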

Additional observations from a re-analysis of the deposited data

Results flagged for a closer look

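Of 24 groups of 4 or 5 libraries tested for a library apart from the others, 1 was found, where chance alone gives about 1 in 20. Ina had 374.3 CPM in acute Input replicate 3, the highest of 5 libraries, the other 4 lying between 349.6 and 353 CPM.

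The change in EAE differed between IP and Input by edgeR's interaction test in 4 cases. The IP change minus the Input change was 0.82 for Nefm in acute EAE. In chronic EAE it was 0.88 for Nefh, 0.92 for Nefm and 0.74 for Nefl. Of these calls, only that of Nefm in chronic EAE held both with the replicate block and with each replicate left out in turn. The mitochondrially encoded genes also differed between the fractions, with 2 of 12 called lower in the chronic interaction, and their part was not tested.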

How the results depend on the processing

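Counts of subunits called that moved by over 1.5 times come first. The DESeq2 Wald test and voom with library weights each called 1 in chronic against acute IP (0 in the edgeR fit), 2 in acute against healthy Input (1) and 2 in the acute interaction (1). Fitting all 28 libraries together called 4 in chronic against healthy IP (2), 1 in chronic against acute IP (0), and 0 in each of acute against healthy Input (1) and chronic against acute Input (1). Without the 4 IP libraries of fewest detected genes 0 were called in acute and 1 in chronic against healthy IP (2 each), 3 in the acute interaction (1), and 0 of the subunit ratios (10) and pan-neuronal ratios (15). The layer 5 denominator gave 0 pan-neuronal ratios. The other changes were of single subunits: the DESeq2 Wald test, voom and the joint fit each called 3 in acute against healthy IP (2), adding Ina, the DESeq2 Wald test and DESeq2's size factors 3 in chronic against healthy IP (2), adding Nefh, and the unfiltered fit and voom 2 in the chronic interaction (3), losing Nefh. Causes were not tested, though with fewer libraries the exact test has fewer arrangements.

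The labels do not say whether replicate numbers pair IP with Input, and the main fits did not use them. The sample codes carry the same running number in IP and Input libraries of one phase and replicate number, without saying what it stands for. IP and Input of the same phase and number correlated at -0.055 to 0.205, with 8 of 14 over 0.1. Of 14 IP libraries 9 correlated best with the Input library of their own number, among the 4 or 5 of their phase. That is more than random matching would give on average, though pairing was not tested. IP libraries of the same number in different phases had a median correlation of 0.039. In the fits of a single fraction the block linked such libraries, and in the joint fits it linked IP and Input. The sample codes of libraries linked across phases carry different running numbers. With the replicate block, 0 subunits were called in acute and 1 in chronic against healthy IP. In the acute interaction 0 were called, and in the chronic one 1. Genes called numbered 2, 15, 0 and 28 (9, 26, 1 and 170 without it). For subunit ratios in IP against Input the block flipped the signs of paired differences, a test whose smallest possible p exceeds 0.05. These ratios could not pass, so the 7 subunit ratios that passed, against 10 without the block, do not measure dependence on pairing. The ratios lost kept their sizes of 0.40, 0.37 and 0.98.

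Leaving out 1 replicate at a time, 0 to 2 subunits were called in acute and 1 to 2 in chronic against healthy IP, 1 to 2 in acute against healthy and in chronic against acute Input, 0 to 2 in the acute and 1 to 3 in the chronic interaction, with 0 to 11 subunit ratios and 12 to 21 pan-neuronal ratios. All 4 subunits stayed called in IP against Input in each phase under every alternative.

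Values near 0 changed sign. Nefh in chronic against healthy Input was -0.003 without a filter, -0.019 with the replicate block and -0.003 with all 28 libraries, and -0.043 to 0.032 leaving out replicates. So did Nefm in chronic against acute IP (-0.038 to 0.127) and acute against healthy Input (-0.085 to 0.016), the ratio to Nefl of Ina in acute IP against Input (-0.062 to 0.036) and of Nefh in chronic against healthy Input (-0.051 to 0.017). Relative to pan-neuronal genes they were Nefh (-0.166 to 0.041) and Ina (-0.160 to 0.162) in chronic against acute IP, Nefl in acute against healthy IP (-0.076 to 0.099), Nefm (-0.003 to 0.075) and Nefl (-0.016 to 0.030) in acute against healthy Input, and Nefh (-0.022 to 0.048) and Ina (-0.053 to 0.007) in chronic against healthy Input. With the mean log2 of the list, Ina gave 0.055 in chronic against acute IP and 0.010 in chronic against healthy Input. With the layer 5 denominator, chronic against acute IP gave 0.172 for Nefh and 0.258 for Ina, IP against Input in healthy mice -0.123 for Nefh, acute against healthy IP -0.173 for Nefl, and Nefm -0.079 in acute against healthy and 0.044 in chronic against acute Input.

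Counts of all genes called depended on the tool. In acute against healthy IP (9) DESeq2 called 125, voom 372, the joint fit 1611 and the fit without 4 libraries 1. In chronic against healthy IP (26) the counts were 296, 50, 2550 and 40, and 54 with DESeq2's size factors. In chronic against acute IP (0) they were 157, 39, 1762 and 0. In Input the joint fit called 20 (3230), 0 (449) and 0 (1259), and DESeq2 706 in chronic against healthy mice. In the acute interaction (1) DESeq2 called 384, voom 247 and the fit without 4 libraries 1364, and in the chronic one (170) 995, 69 and 1823, with 47 unfiltered. For IP against Input, voom called 5824 in healthy (3587) and 6855 in acute mice (3097), and the fit without 4 libraries 5769 in healthy mice. With 1 replicate left out at a time, 1 to 50 genes were called in acute and 9 to 43 in chronic against healthy IP, 250 to 447 in chronic against healthy and 784 to 1188 in chronic against acute Input, and 0 to 287 in the acute and 43 to 148 in the chronic interaction. Leaving out shared bases moved 16 of 18 levels per length by more than 1 SD.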
